A study of Homo sapiens with 4 samples.

Results

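The cells described here are MV4-11 cells that received the control hairpin, and their RNA was measured on 1 of the 4 arrays of the series. The array was chosen by its genotype label, which reads Control shRNA, and its hairpin targets luciferase, a gene that human cells do not have. Of the 53617 probe sets on the array, those with 1 gene symbol gave values for 22357 genes, each taken from the probe set with the highest mean over the 4 arrays. MV4-11 is a human leukaemia cell line of monocytic type whose KMT2A gene is fused to AFF1 and whose FLT3 receptor gene carries an internal tandem duplication. The series set this control beside 3 hairpins against RUNX1, a transcription factor of blood cell formation, labelled moderate, profound 1 and profound 2. The genotype labels and titles of the arrays labelled profound name RUNX1, whereas their description fields name RUNX2 and RUNX3. All 4 cultures, the control included, were transduced and then kept in 3 µM doxycycline for 24 h, so an untreated, untransduced state was not measured. Each hairpin was measured on 1 array, so the control values have no replicate.

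Monocytes and granulocytes arise from a shared bone marrow progenitor under transcription factors such as PU.1 (gene SPI1) and C/EBPα (CEBPA). Early progenitors of this branch fill their primary granules with serine proteases and lysozyme, neutrophil precursors later make secondary granule proteins, and maturing monocytes display CD14 on their surface. Leukaemias with KMT2A fusions are commonly arrested at an early stage of this branch, and their fusion protein depends on cofactors such as menin and DOT1L.

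Signals are log2 RMA values, and 1 unit is a 2-fold step. The control array ran from 0.70 to 12.57 with a median of 3.07. A gene was called above background when its signal exceeded 3.83, the 95th percentile of 493 genes for olfactory and taste receptors, keratin-associated proteins and beta-defensins, taken as largely silent in blood cells. By that rule 11010 of the 22357 genes, or 49.2%, were above background, as were 9767 of 17067 protein-coding genes, or 57.2%. The reference genes had a median of 2.09, but their families differed. Of 356 olfactory receptor genes 10 were above 3.83, against 10 of 88 genes for keratin-associated proteins, among which the highest signal of the reference class, 7.29, lay. Percentiles below give the share of the 22357 genes with a lower signal, and 2236 genes, or 10.0%, form the top decile, which begins at 7.75. Of protein-coding genes 12.6% lie in it. Counts for lists of protein-coding genes are to be read beside that 12.6% and the 57.2% above background. Probe sets differ in how well they bind their targets, so a percentile ranks signals and not transcript numbers. Among 18 widely expressed housekeeping genes, all above background, UBB (ubiquitin) read 4.74, GAPDH (a glycolytic enzyme) 6.68 and TUBB (a tubulin) 11.91.

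**Figure D1:**
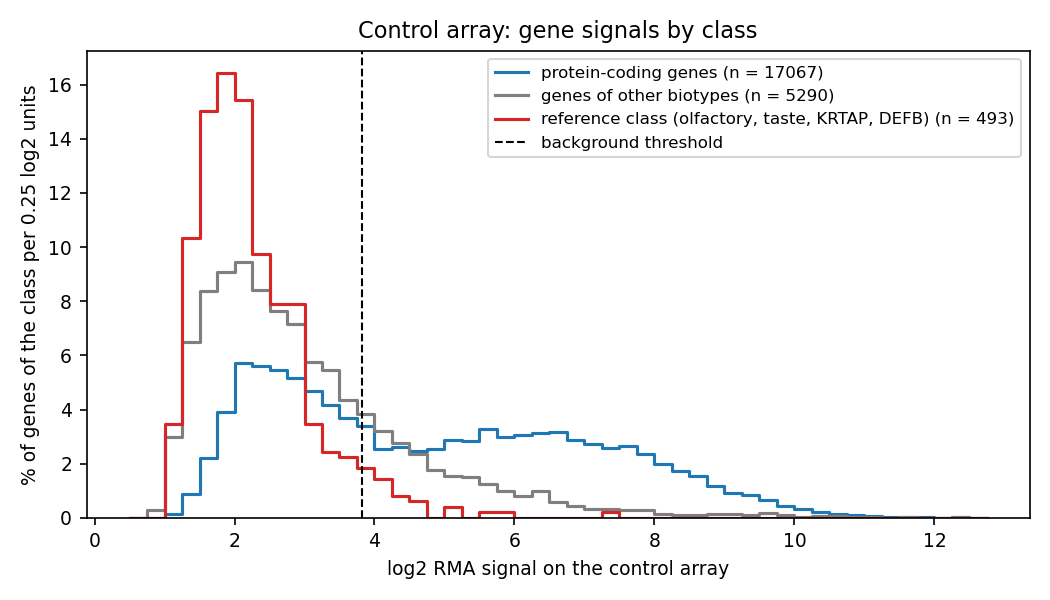
Distribution of log2 RMA signals on the control array for protein-coding genes, genes of other biotypes and the reference class, as the percentage of each class per 0.25 log2 units. The dashed line is the background threshold of 3.83, which 57.2% of protein-coding genes and 25 of the 493 reference genes exceed.

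The other 3 arrays served to see how far a position on the control array was kept elsewhere in the series, and they hold both array error and any effect of the RUNX1 hairpins, which cannot be told apart. The median gene moved by 1.63 percentile points on the array labelled moderate, 2.20 on profound 1 and 1.78 on profound 2. Among genes above background on the control array, the median absolute difference was 0.11, 0.18 and 0.12 log2 units in the same order, and 95% of genes differed by less than 0.40, 0.66 and 0.46. Of the 11010 genes, 10303 (93.6%) exceeded each array's own threshold, which lay between 3.83 and 3.93, on all 4 arrays. RUNX1 itself is not analysed here. In a culture measured in bulk, fewer cells with a transcript and less of it per cell cannot be told apart.

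Among the highest protein-coding signals were those of the mitochondrial genome, of housekeeping genes and of members of the granule and monocyte lists. Of the 25 highest, 7 are encoded in mitochondria, led by ND2 at 12.53 and COX1 at 12.43, which encode subunits of the respiratory chain. A further 3 encode cytosolic ribosomal proteins, RPS15 at 11.63, RPS28 at 11.56 and RPS27 at 11.32. Members of the granule and monocyte lists made up 4 of the 25. FTL, the light chain of the iron store ferritin, is in the monocyte list but is not particular to monocytes, and it read 11.85. SRGN, the proteoglycan serglycin that packs granule proteins, read 11.79. LYZ (lysozyme) followed at 11.34 and PRTN3 (proteinase 3) at 11.30. Other blood cell genes in this group were ELF1, an ETS family transcription factor, at 11.29, and LAPTM5, a lysosomal membrane protein of blood cells, at 11.21. Among genes of other biotypes the highest was SNORD13, a small nucleolar RNA that guides ribosomal RNA modification, at 12.34, followed by HNRNPA1P10, a transcribed pseudogene, at 11.74 and RMRP, the RNA of the RNase MRP complex, at 11.51. The nuclear RNA MALAT1 read 10.94. Of the 100 highest genes of any kind 91 were protein coding and 5 were small nucleolar RNAs.

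Of the 47 microRNA hairpins of the list that had their own probe set, 16 were above background and 0 were in the top decile, with a median percentile of 21.1. Over all 1018 microRNA genes the share above background was 21.5%. These probe sets hybridise to cDNA of total RNA and read the hairpin or its primary transcript, so the mature strands printed here were not measured themselves. The sequences are RefSeq's (GRCh38.p14), read 5′ to 3′, with the seed (bases 2 to 8, the part that pairs with targets) in capitals, and they show the main strand of the 10 highest hairpins (both strands for MIR142 and MIR223), of MIR181A1 and MIR222, which share a seed with a neighbour among these, and of the pair MIR15B and MIR16-2.
hsa-miR-142-5p: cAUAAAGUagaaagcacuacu
hsa-miR-142-3p: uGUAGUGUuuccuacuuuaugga
hsa-miR-223-5p: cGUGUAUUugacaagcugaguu
hsa-miR-223-3p: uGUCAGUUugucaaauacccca
hsa-miR-99b-5p: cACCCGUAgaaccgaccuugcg
hsa-miR-181b-5p: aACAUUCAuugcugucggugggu
hsa-miR-181a-5p: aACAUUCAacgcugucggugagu
hsa-miR-221-3p: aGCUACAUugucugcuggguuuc
hsa-miR-222-3p: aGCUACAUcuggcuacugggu
hsa-miR-9-5p: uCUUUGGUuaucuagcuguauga
hsa-miR-21-5p: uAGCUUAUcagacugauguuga
hsa-miR-25-3p: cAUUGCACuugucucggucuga
hsa-miR-93-5p: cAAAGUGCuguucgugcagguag
hsa-miR-106b-5p: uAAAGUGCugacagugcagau
hsa-miR-15b-5p: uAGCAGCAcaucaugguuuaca
hsa-miR-16-5p: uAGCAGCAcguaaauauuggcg

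MIR142 on chromosome 17, the hairpin of a microRNA made throughout the blood lineages, had the highest signal of the list. It read 7.08 on the control array and 7.14, 7.11 and 7.07 on the arrays labelled moderate, profound 1 and profound 2, a spread of less than 0.1. MIR223 on the X chromosome, known from granulocytes and monocytes, read 6.56 and was somewhat higher on the other arrays, at 6.94, 6.81 and 6.75. MIR99B read 6.35. MIR221 read 5.90, while MIR222, whose main strand has the same seed GCUACAU, read 3.03. MIR181B1 stood at 6.08, while MIR181A1, which lies beside it on chromosome 1 and whose main strand has the same seed ACAUUCA, read 1.56.

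MIR25, MIR93 and MIR106B lie within MCM7, a gene of the replicative helicase. MIR25 read 5.26, MIR93 4.70 and MIR106B 5.19, all above background on all 4 arrays, and MCM7 itself read 9.66. The main strands of MIR93 and MIR106B share the seed AAAGUGC, and that of MIR25 has another, AUUGCAC. MIR15B and MIR16-2, whose main strands share AGCAGCA, were near the threshold at 4.10 and 3.87 and fell short of it on the other 3 arrays, where MIR15B lay between 3.01 and 3.44. Hairpins known from other tissues or lineages were found at both high and low percentiles. MIR9-1, best known from neural tissue, read 5.48 on the control array (68.1st percentile) and between 5.39 and 5.43 elsewhere. MIR141 of epithelia read 2.84. MIR122 of liver read 1.54, MIR126 of endothelium and early progenitors 1.74 and MIR451A of red cells 1.22. MIR146A, which macrophages make after stimulation, read 3.06.

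Lineage transcription factors were broadly above background. Of 58 measured, 46 (79.3%) exceeded it, against 57.2% of protein-coding genes. Over the 4 arrays the count ranged from 40 to 46. On the control array the list's median percentile was 73.0, and 16 (27.6%) were in the top decile, against 12.6% of protein-coding genes. SPI1, CEBPA and IRF8, core factors of the granulocyte and monocyte branch, were among these. SPI1 read 8.65 (95.5th percentile) and, on the arrays labelled moderate, profound 1 and profound 2, 8.58, 8.65 and 8.61. CEBPA read 8.91 on the control array and 8.89, 8.98 and 8.88 on the others. Both control values lay within about 0.1 of every other array. IRF8, which directs progenitors toward monocytes and dendritic cells, read 10.09 (99.3rd percentile), slightly below the other arrays at 10.17, 10.20 and 10.25. MYB and MYC, which sustain progenitor growth, read 9.35 and 9.74, each within the range of the other arrays.

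Among further factors of this branch, the RUNX partner CBFB read 9.29 and RUNX3 8.17, with 8.28, 7.75 and 7.74 on the other arrays. RUNX2 read 6.23. GFI1, a repressor of monocyte genes in granulocyte precursors, read 7.27, and EGR1, an immediate early factor active in monocytes, read 7.03. CEBPD and CEBPB, C/EBP members of later myeloid cells, read 7.28 and 5.64. KLF4, a monocyte factor, read 4.75 (60.9th percentile). WT1, commonly expressed in acute leukaemia, read 7.25 on the control array and 6.92, 6.52 and 6.74 on the others, so the control was the highest of the 4.

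Factors known mainly from other fates or stages lay on both sides of the threshold. FLI1, an ETS factor of stem cells and megakaryocytes, read 7.85 (90.8th percentile). LYL1, a relative of TAL1, read 6.80, and LMO2, a stem cell and erythroid partner of TAL1, read 6.58. FLI1, LYL1 and LMO2 were above background on all 4 arrays. CEBPE, which drives secondary granule formation, read 2.67, with 2.62 to 2.75 on the other arrays. TAL1 and GATA2, factors of stem cells and the erythroid and mast cell lines, read 2.66 and 3.15, and ERG, a stem cell ETS factor, 3.35. GATA1, the erythroid and megakaryocytic factor, read 3.95, barely above the threshold, and was above it on 3 of the 4 arrays. IRF4 exceeded the threshold by less than 0.01 and GFI1B read 3.91, above it on the control array alone. MITF, BACH2 and MAF, factors of mast cells, lymphocytes and macrophages, read 2.32, 2.46 and 3.12.

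The HOXA cluster is a known target of KMT2A fusions, and of the 18 genes of that list, which adds the HOX cofactors, 6 had a probe set of their own. MEIS1, a cofactor that KMT2A fusions are known to switch on, read 6.59 (79.8th percentile) on the control array and 6.63, 6.25 and 6.34 on the others. Its relatives PBX3 and MEIS2 read 6.33 and 5.09, and PBX4 was at the threshold with 3.89. HOXA2 read 2.22 and lay below background on all 4 arrays. HOXA9 and HOXA10 are not analysed here. Of 23 HOXB, HOXC and HOXD genes, 4 (17.4%) were above background and none in the top decile. The highest, HOXB3 and HOXB4, read 4.16 and 3.98, and on another array the count of genes above background in this list was 0.

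Of 17 listed partners and cofactors of the fusion, 15 were measured. All 15 were above background, against 57.2% of protein-coding genes, with a median percentile of 89.4. KMT2A, a histone methyltransferase, read 7.80 and AFF1, an elongation factor subunit, 8.44, and the array does not separate the fusion transcript from the normal alleles. MEN1 (menin) read 7.67 and DOT1L, the H3K79 methyltransferase, 8.01. PSIP1, which tethers menin and KMT2A to chromatin, read 8.12 and MLLT1, a reader in the elongation complex, 8.35. MLLT3, its relative, was lowest at 3.91 and exceeded the threshold on 2 of the 4 arrays. Among 29 measured chromatin regulators all were above background as well, against the same 57.2%. DNMT1, the maintenance DNA methyltransferase, read 9.81, EZH2, the Polycomb methyltransferase, 8.05, TET2, a methylcytosine oxidase, 6.73, and DNMT3A, a de novo methyltransferase, 5.62.

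**Figure D2:**
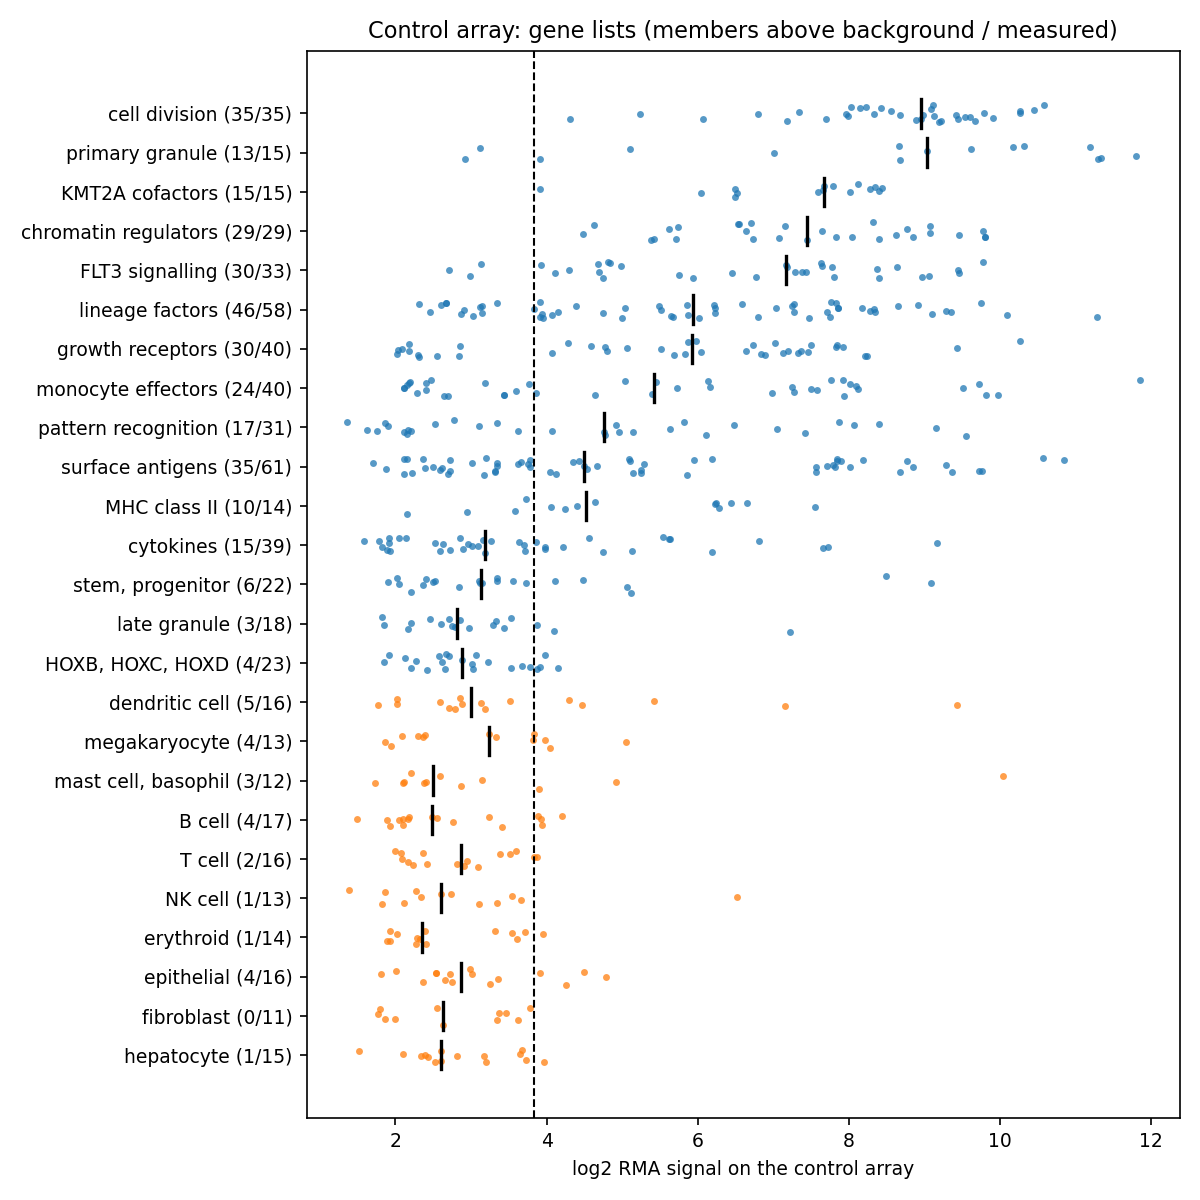
Log2 RMA signal on the control array (horizontal axis) for every measured member of 25 gene lists, 1 point a gene, with a black bar at the list median and the background threshold of 3.83 as a dashed line. Blue lists describe programmes and orange lists are markers of other cell types. Primary granule genes reach 11.79, whereas late granule genes and the markers of other lineages lie mostly left of the line.

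Growth factor receptors were mostly above background. Of 40 measured, 30 (75%) were above background and 7 (17.5%) in the top decile, against 57.2% and 12.6% of protein-coding genes. The median percentile of the list was 72.9. IL17RA, a subunit of the interleukin 17 receptor, had the highest signal of the list at 10.27, and the other arrays lay between 10.26 and 10.37. FLT3, the progenitor receptor kinase mutated in this line, read 9.43 (98.1st percentile), with 9.43, 9.46 and 9.28 on the arrays labelled moderate, profound 1 and profound 2. The 4 values lay within 0.2 of each other. CSF1R, the receptor for the macrophage growth factor M-CSF, read 7.50. CSF2RA and CSF2RB, the chains of the GM-CSF receptor, read 7.33 and 6.89, and IL3RA, the interleukin 3 receptor chain also known as CD123, read 7.13. CSF3R, the granulocyte receptor for G-CSF, was lower in its percentile (74.1) with 6.04 on the control array and 6.55, 6.60 and 6.30 on the others.

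Other receptors of this list ranged from the top decile to below background. KIT, the stem cell factor receptor, read 5.07 on the control array and 4.59, 4.30 and 4.42 on the others, so the control was the highest of the 4. IL7R, a lymphoid cytokine receptor, read 6.84, inside a range of 5.94 to 7.14 on the other arrays. IL6R read 8.22, IFNAR1 of the type I interferon receptor 8.24 and TNFRSF1A, a TNF receptor, 7.83. EPOR, the erythropoietin receptor, read 5.52. The epithelial receptor kinases EGFR and MET read 2.31 and 2.02, and IL5RA of eosinophils 2.30. The signalling genes downstream of FLT3 were mostly above background, 30 of 33 (90.9%, against 57.2% of protein-coding genes). They include the kinases SYK (9.06), BTK (8.97) and LYN (8.64), and the STAT5 targets PIM1 (7.65) and CISH (6.77). DUSP6, a feedback phosphatase of the ERK pathway, read 7.63, while SPRY4, another feedback inhibitor of that pathway, read 3.13 and lay below background on all 4 arrays.

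Of 19 chemoattractant receptors 10 (52.6%) were above background, between the 49.2% of all genes and the 57.2% of protein-coding genes. The count was 10 on each of the other arrays. CXCR4, which holds cells in the bone marrow, read 8.77, and 8.85, 9.01 and 8.97 on the other arrays. CCR2, the receptor of classical monocytes for CCL2, read 7.21. P2RY8 read 9.32 from the higher of its probe sets, and the lower one read 5.30. The receptors for bacterial peptides and complement C5a that mature phagocytes carry, FPR1 and C5AR1, were below background at 2.46 and 2.49, and CXCR1 of neutrophils read 1.96.

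Among surface antigens 35 of 61 (57.4%) were above background, about the same as the 57.2% of all protein-coding genes. In the top decile were 16 (26.2%), against 12.6% of protein-coding genes. ITGAL, the alpha chain of the leukocyte integrin LFA-1, read 10.85 on the control array and 10.88, 10.79 and 10.75 on the others. TYROBP (DAP12), the adaptor of activating myeloid receptors, read 10.56 and SPN (CD43), a leukocyte sialoglycoprotein, 9.76. CD68, a lysosomal glycoprotein of the monocyte and macrophage line, read 9.28 on the control array against 9.14, 9.98 and 9.91, so the arrays labelled profound were higher. CD4, which human monocytes carry, read 7.89, and PTPRC, the leukocyte common antigen CD45, 7.56. Genes of antigens used in leukaemia diagnosis lay at different levels. FUT4, whose enzyme makes the carbohydrate antigen CD15, read 7.79 (90.3rd percentile), and others lay lower. CLEC12A read 5.94, CSPG4 (NG2), which marks leukaemias with KMT2A fusions, 5.11, and ANPEP (CD13) 4.35, above the threshold on 3 of 4 arrays. CD33 is not analysed here.

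Antigens of the monocyte and macrophage line were not uniform in this list. Besides CD68 and CD4, SIRPA, an inhibitory receptor that binds CD47, read 8.67, LAIR1, a collagen receptor, 7.84 and CD300LF, an inhibitory myeloid receptor, 7.72. Others were near or below background. CD14, the monocyte receptor for lipopolysaccharide complexes, read 2.16 on the control array and 2.10, 2.33 and 2.29 on the others, all below background. FCGR3A (CD16) read 1.88, CD163 of macrophages 2.12 and CD36, a scavenger receptor, 3.35. The integrin chain ITGAM (CD11b) read 3.78, within 0.1 below the threshold, and 3.87, 3.89 and 3.85 elsewhere. ITGAX (CD11c) read 3.02, with 3.65, 4.15 and 3.82 elsewhere. The beta chain that both share, ITGB2, read 5.09. CD34 and PROM1, antigens of stem and progenitor cells, read 2.50 and 2.36, and CD38 read 3.78 on the control array but 4.79 and 5.23 on the arrays labelled profound.

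**Figure D3:**
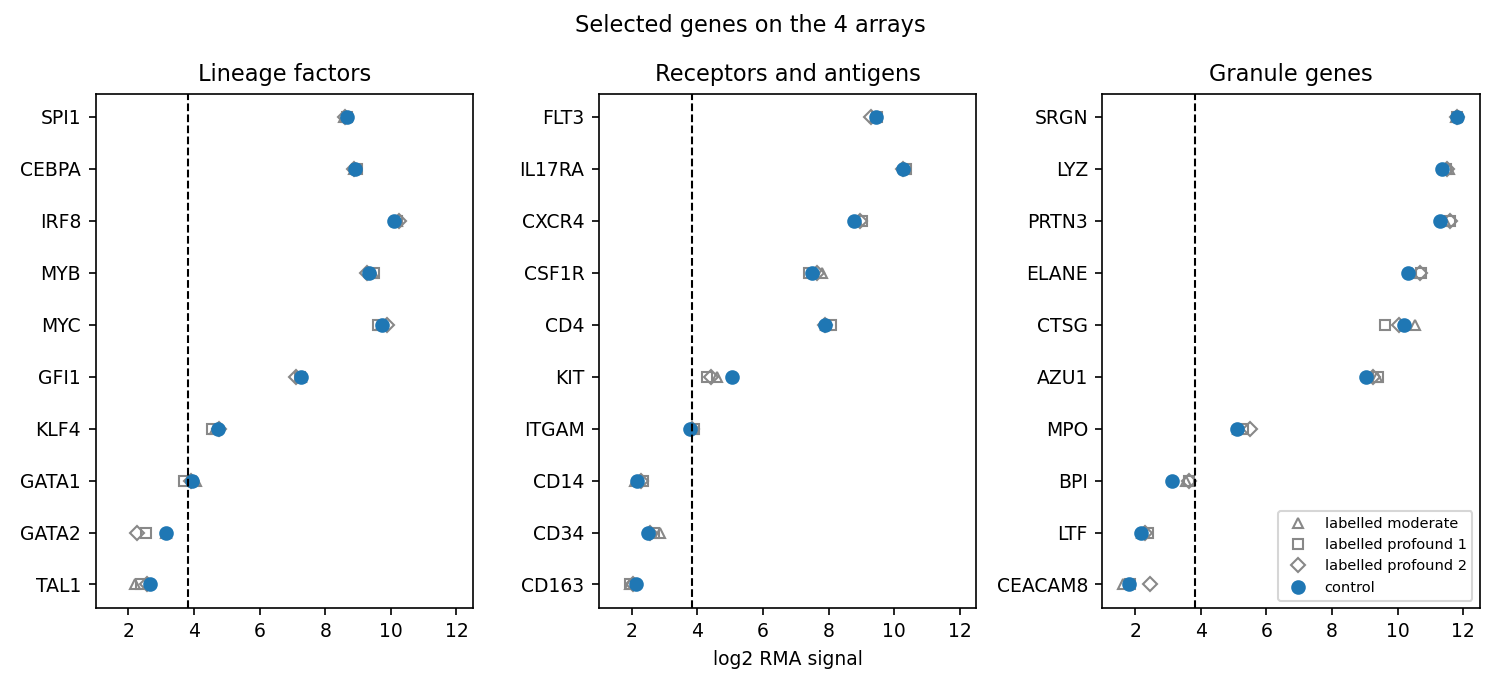
Log2 RMA signal (horizontal axes) of 30 genes on the 4 arrays, with the control array as a filled blue circle, the arrays labelled moderate, profound 1 and profound 2 as open symbols, and the control background threshold of 3.83 as a dashed line. SPI1, CEBPA, FLT3 and SRGN nearly coincide on all arrays, and CD14, CD34, LTF and CEACAM8 stay left of the line on each.

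Primary granule genes had the highest median percentile of all lists, 97.0. Of 15 measured genes 13 (86.7%) were above background and 10 (66.7%) in the top decile, against 57.2% and 12.6% of protein-coding genes. The list also counts SRGN and genes that act on the proteases, CTSC and SERPINB1. The neutral serine proteases were in the top decile. PRTN3 read 11.30 on the control array and 11.43, 11.60 and 11.60 on the arrays labelled moderate, profound 1 and profound 2. ELANE (neutrophil elastase) read 10.31, and 10.45, 10.72 and 10.68 elsewhere. The control was the lowest of the 4 arrays for both. CTSG (cathepsin G) read 10.18, inside a range of 9.62 to 10.51, and AZU1 (azurocidin), an inactive relative of these proteases, 9.04. LYZ read 11.34, and 11.57, 11.46 and 11.49 elsewhere. RNASE2, an eosinophil and monocyte ribonuclease, read 11.20. CTSC, which activates the proteases, read 8.67 and SERPINB1, which inhibits them, 8.66.

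MPO (myeloperoxidase), the enzyme that defines primary granules in diagnosis, lay outside the top decile. It read 5.10 on the control array (64.3rd percentile) and 5.13, 5.29 and 5.48 elsewhere. DEFA4, a defensin of the same granules, was near the threshold at 3.91. BPI, a bactericidal protein of neutrophils, read 3.12 and remained below background on all 4 arrays. Genes of secondary and tertiary granules were largely below background. Of 18 measured, 3 (16.7%) were above background and none in the top decile. LTF (lactoferrin) read 2.16, CEACAM8 1.82, CAMP 3.29 and MMP9 (gelatinase) 3.33. The exceptions were CHI3L1, a chitinase-like protein also made by macrophages, at 7.23 with 7.06 to 7.34 elsewhere, CXCR2 at 4.10 and LCN2 at 3.88.

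Of 40 monocyte effector genes 24 (60%) were above background, close to the 57.2% of all protein-coding genes. In the top decile were 11 (27.5%), against 12.6% of protein-coding genes. Several of these, such as FTL, GRN and CTSD, are not particular to monocytes. GRN (progranulin) read 9.97, AIF1, an actin-binding protein of macrophages, 9.81, CTSD (cathepsin D) 9.72, and NCF4 of the NADPH oxidase 9.51. CES1, the esterase behind a stain for monocytes, read 7.92 on the control array and 8.87, 8.96 and 8.17 elsewhere, so the control was the lowest. MNDA, a nuclear protein of myeloid cells, read 6.16. The calprotectin genes S100A8 and S100A9 were intermediate at 5.73 and 5.45. FCN1, a lectin of classical monocytes, was at the threshold with 3.86. VCAN and S100A12, further classical monocyte genes, read 2.29 and 2.18, LGALS3 (galectin 3) 2.11, and CYBB, the oxidase's catalytic subunit, 3.60.

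Of 31 innate sensors 17 (54.8%) were above background, a share close to the 57.2% of all protein-coding genes. TLR2, a receptor for bacterial lipoproteins, read 8.40, the inflammasome sensor NLRP3 8.07 and its adaptor PYCARD 9.55. TLR4, the lipopolysaccharide receptor, read 4.92, while LY96 (MD-2), the partner it needs for that ligand, read 1.35 on the control array and at most 1.53 elsewhere. The RNA sensors TLR7 and TLR8 read 2.11 and 2.21. Of 39 cytokines and chemokines 15 (38.5%) were above background, against 57.2% of protein-coding genes. Only 1 was in the top decile, TGFB1 at 9.16. TNF read 7.73 on the control array and 7.69, 6.93 and 6.99 elsewhere. IL18 read 6.19. IL1B (2.85), CXCL8 (2.89) and IL6 (3.18), which monocytes release on stimulation, were below background.

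MHC class II genes, which present antigen to T cells, were intermediate. Of 14 measured, 10 (71.4%) were above background, against 57.2% of protein-coding genes, and none were in the top decile. With each gene read from its lowest-mean probe set the count was 7 of 14, so the excess depends on the choice of probe set. HLA-DRA read 6.44 on the control array and 6.85, 7.19 and 7.31 elsewhere, so the control was the lowest. CD74, the invariant chain, read 6.24 and CIITA, the master regulator of the set, 4.64. HLA-DRB1 read 2.15, but these genes are highly polymorphic, and 8 probe sets for HLA-DQA1 ranged from 2.36 to 6.66, so single HLA values are uncertain.

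Genes of stem and progenitor cells were mostly below background, with 6 of 22 (27.3%) above it, against 57.2% of protein-coding genes. CDK6, a cell cycle kinase, read 9.09 and NRIP1, a nuclear receptor corepressor, 8.49, and these were the 2 members in the top decile. Of 35 measured genes of cell division all were above background and 28 (80%) in the top decile, with a median percentile of 96.7. MKI67 (Ki-67) read 10.58 on the control array and 10.32, 9.70 and 10.25 elsewhere, and TOP2A (topoisomerase II) 10.45, with 10.36, 9.59 and 10.40 elsewhere. The control was the highest of the 4 for both. Among the D cyclins CCND2 read 6.07, CCND3 5.23 and CCND1 4.30. Of 11 inhibitors of the cycle 10 (90.9%) were above background. CDKN1B (p27) read 8.97 and RB1 9.06, whereas CDKN2B (p15) read 2.89.

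Survival genes and targets or transporters of leukaemia drugs were also measured. BCL2, the target of venetoclax, read 8.88 and MCL1, its relative, 8.74, while BCL2A1, another relative, read 1.66 and was below background on all 4 arrays. Of 24 regulators of apoptosis 20 (83.3%) were above background, against 57.2% of protein-coding genes. SAMHD1, a nucleotidase that cleaves activated cytarabine, read 10.10. SLC29A1, the transporter that takes cytarabine into cells, read 7.89 on the control array and 7.73, 6.77 and 7.83 elsewhere. The efflux pumps ABCB1 and ABCG2 read 2.49 and 2.07, and their relative ABCC1 7.04. In glycolysis, with 16 of 20 genes (80%) above background, the glucose transporter SLC2A1 read 8.26 and SLC2A3 3.28.

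Markers of other cell types were mostly below background. Over 101 markers of other blood lineages 20, or 19.8%, were above background and 2 in the top decile, against 57.2% and 12.6% of protein-coding genes. Over 94 markers of solid tissues and germ cells 14, or 14.9%, were above background and none in the top decile. Fibroblast markers numbered 0 of 11 above background and muscle markers 0 of 12. Of 14 erythroid markers the only one above was GATA1, and of 13 NK cell markers NKG7, a granule membrane protein, at 6.52. The B cell markers above background were CD79A (4.20), IGLL1 (3.94), CD79B (3.92) and VPREB1 (3.89), of 17, and the T cell markers were ZAP70 (3.87) and GATA3 (3.84), of 16.

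The 2 markers of other blood lineages in the top decile are genes that early myeloid cells also use. MS4A3, listed for basophils and known from granulocyte and monocyte progenitors, read 10.04 on the control array and 10.23, 9.80 and 9.98 elsewhere. FLT3, listed for dendritic cells, is given above. TCF4, a factor of plasmacytoid dendritic cells, read 7.15. PF4, a platelet chemokine, read 5.05, with 4.97 to 5.14 elsewhere. Epithelial and endothelial markers above background were few and low, with CLDN3, a tight junction protein, at 4.79 and EGFL7, a vascular secreted protein, at 4.90.

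The RefSeq promoters of the measured genes differed with the signal on this array. For 15511 genes the table gave the sequence from 250 bases before to 50 after the gene start, and a promoter was called CpG-rich when its observed over expected CpG was at least 0.6 and its GC content at least 50%. CpG-rich promoters belonged to 39.8% of genes below background, 73.6% of those above it but under the 75th percentile, 86.0% between the 75th and 90th, and 87.4% of the top decile. By deciles of signal the share went from 23.1% to 87.4%. These shares are a description across genes, which are not independent, and base composition also affects how probes bind. A TATAAA motif lay in 14.2% of promoters below background and 5.05% in the top decile, and CCGGAA, the core of ETS sites, in 10.1% and 35.6%. CCGGAA holds a CpG itself, so the 2 measures overlap. Motifs were read on both strands.

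**Figure D4:**
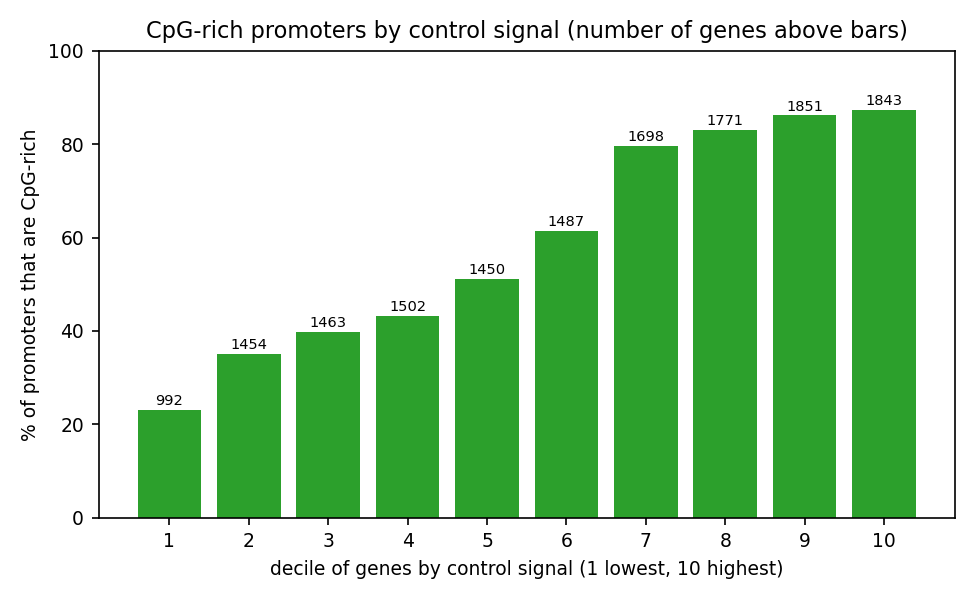
Percentage of RefSeq promoters that are CpG-rich (vertical axis) by decile of genes by control signal (horizontal axis, 10 highest), with the number of genes with a promoter over each bar. The share is 23.1% in the lowest decile and 87.4% in the highest.

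Of the granule and monocyte effector genes, 24 above background had a promoter in the table, and 8 of these (33.3%) were CpG-rich. Among other lists above background, 25 of 26 genes of cell division (96.2%) and 23 of 37 lineage factors (62.2%) were CpG-rich. GAGGAA, a core of PU.1 sites, occurred in 11 of those 24 promoters (45.8%) and in 27.8% of all measured ones. CCAAT occurred in 18 of 26 cell division promoters (69.2%) and in 35.9% of all. No test was made of these differences. Printed are the 250 bases before the start of PRTN3 and AZU1, neighbours among the high granule genes, of CD14, which was below background, and of FLT3, whose promoter is CpG-rich. Capitals mark GAGGAA or its reverse complement, and each is written 5′ to 3′ on the gene's strand of GRCh38.p14.
PRTN3, chr19:840749-840998, plus strand: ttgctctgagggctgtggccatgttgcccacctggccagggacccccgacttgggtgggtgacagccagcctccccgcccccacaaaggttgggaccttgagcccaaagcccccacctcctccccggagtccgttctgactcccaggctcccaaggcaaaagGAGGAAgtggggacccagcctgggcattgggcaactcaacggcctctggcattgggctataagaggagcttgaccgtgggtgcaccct
AZU1, chr19:827587-827836, plus strand: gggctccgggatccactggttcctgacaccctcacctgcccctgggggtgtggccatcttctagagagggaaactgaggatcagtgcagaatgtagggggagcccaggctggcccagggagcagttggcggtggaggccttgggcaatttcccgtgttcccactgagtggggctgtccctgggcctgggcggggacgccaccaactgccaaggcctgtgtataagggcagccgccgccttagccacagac
CD14, chr5:140633176-140633425, minus strand: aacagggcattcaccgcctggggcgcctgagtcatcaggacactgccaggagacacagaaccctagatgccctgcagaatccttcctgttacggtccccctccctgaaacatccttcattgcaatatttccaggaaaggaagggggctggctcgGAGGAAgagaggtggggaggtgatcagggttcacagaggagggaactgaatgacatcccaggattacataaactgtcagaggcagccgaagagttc
FLT3, chr13:28100577-28100826, minus strand: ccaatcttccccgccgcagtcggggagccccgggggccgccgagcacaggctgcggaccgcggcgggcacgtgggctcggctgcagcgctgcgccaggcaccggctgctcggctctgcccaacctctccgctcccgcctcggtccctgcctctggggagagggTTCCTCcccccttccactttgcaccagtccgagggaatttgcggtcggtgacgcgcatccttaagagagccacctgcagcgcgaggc

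PRTN3, with a signal of 11.30, FLT3, at 9.43, and CD14, at 2.16, each hold 1 GAGGAA on either strand. AZU1, at 9.04, holds none. Among these genes the motif occurs both with a high signal and with one below background. The CpG ratio over the whole 300 bases was 0.27 for PRTN3, 0.28 for AZU1, 0.35 for CD14 and 0.83 for FLT3.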

How the data were processed

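Total RNA of 4 cultures was hybridised to whole-transcript arrays after conversion to biotin-labelled cDNA, per the labels' protocols. The authors deposited log2 signals. The submitters' processing notes name RMA, the Transcriptome Analysis Console (1.0) and the Expression Console of Affymetrix (1.3.1). Neither the settings nor a build is given in the sources used here. RMA subtracts background, equalises the arrays' distributions and summarises each probe set, so total RNA per cell cannot be read from it and dim values are compressed. Of 53617 probe sets 23871 had 1 symbol, 1842 several and 27904 none listed. Those with several named no gene. Symbols were matched to RefSeq GRCh38.p14: 23214 unchanged, 88 through the Entrez ID, 565 through a synonym, 4 kept as listed. Of 662 genes with more than 1 probe set, 193 had probe sets on both sides of the background threshold. Every column was used (0 unused columns).

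Python 3.11.15 with pandas 2.3.3 and NumPy 2.4.6 computed the reference threshold, percentiles (ties counted in equal parts), 38 list summaries (14 of them markers) and promoter features. The scripts were tested on simulated data. The named genes are list members, the 25 highest protein-coding genes, the 10 highest of other biotypes and the 10 list members nearest the threshold on each side. The members and lists were chosen with earlier results of these data known, and the motifs, printed promoters and symbol families after the values were seen. No test was made, since each group has 1 array, which limits the precision of every value. The alternatives were a 99th percentile threshold, the table's median as threshold, the lowest-mean probe set, the mean of the 4 arrays, protein-coding genes only and a stricter CpG ratio.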

Additional observations from a re-analysis of the deposited data

How the results depend on the processing

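The count of 11010 genes above background stayed within 1.5 times under all 5 alternatives run on it. It was 8818 with the 99th percentile of the reference class (4.72) as threshold, 13894 with the table's median (3.07), 10857 with the lowest-mean probe set per gene, 11351 on the mean of the 4 arrays and 9767 among protein-coding genes. With an observed over expected CpG of 0.75, CpG-rich promoters made up 28.4%, 59.2%, 73.1% and 75.7% from genes below background to the top decile, and the order of the bands was kept. Among protein-coding genes alone the share was 42.1% below background and 74.97% from there to the 75th percentile. Of the 38 list counts, 15 moved by more than 1.5 times at the 99th percentile, 13 at the table's median, 4 on the mean of the 4 arrays and 0 with the lowest-mean probe set. At the stricter threshold the counts above background went from 4 to 0 for HOXB, HOXC and HOXD, 10 to 6 for chemoattractant receptors, 3 to 1 for late granule genes, 10 to 6 for MHC class II, 16 to 9 for microRNA hairpins and 5 to 3 for dendritic cell markers. They went from 4 to 1 for megakaryocyte, endothelial and epithelial markers, from 4 to 0 for B cell markers, from 3 to 0 for germ cell markers, from 2 to 0 for T cell and neuron markers and from 1 to 0 for erythroid and liver markers. With the table's median they became 8 for HOXB, HOXC and HOXD, 7 for late granule genes, megakaryocyte and endothelial markers, 13 for stem and progenitor genes (6 before), 8 for dendritic cell, 6 for T cell and liver markers, and 5 for erythroid, NK cell, neuron, fibroblast and muscle markers. On the mean of the 4 arrays they became 2 for erythroid, 0 for T cell, 1 for fibroblast and 3 for liver markers. Median percentiles of lists moved in 34 of 36 lists among protein-coding genes, since the ranking then runs over fewer dim genes. No paired analysis was possible because each group has 1 array. Calls within about 0.06 of the threshold, such as IRF4, ITGA2B, GATA3, FCN1, CD38 and ITGAM, rest on a difference smaller than the typical shift between arrays.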

Other observations

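Symbol families chosen after the values were seen add to the description of the control array. All 71 mitochondrial ribosomal proteins were above background, with a median percentile of 83.1, and so were 51 of 55 cytosolic ribosomal proteins. Of 35 proteasome subunits 32 (91.4%) were above background and 25 (71.4%) in the top decile. Of 34 histone genes 23 (67.6%) were above background, against 57.2% of protein-coding genes. Of 434 zinc finger genes named ZNF 318 (73.3%) were above background. Only 20 of them (4.61%) lay in the top decile, against 12.6% of protein-coding genes. Small nucleolar RNAs were above background in 120 of 216 cases (55.6%), near the 49.2% of all genes. In the top decile were 34 (15.7%), against 10.0% of all genes. Keratins (3 of 44) and interferon alpha genes (1 of 12) were mostly below background. Among myeloid receptor families 7 of 12 Siglecs and 4 of 9 LILR receptors were above background. These shares of 58.3% and 44.4% compare with 49.2% of all genes and 57.2% of protein-coding genes. The highest were SIGLEC12 at 6.11 and LILRA2 at 5.67, and no member was in the top decile.

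Antigen receptor segments were mostly below background. Of 81 immunoglobulin variable segments 24 (29.6%) were above it, against 49.2% of all genes. Only 1 was in the top decile, IGLV2-14 at 9.39. Of 90 T cell receptor variable segments 17 (18.9%) were above background and 0 in the top decile. The highest of these, TRGV10, read 7.54 on the control array and between 7.30 and 7.84 elsewhere. The source of these signals was not tested.

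Chromosome 19 holds 1268 of the 17045 nuclear protein-coding genes examined (7.44%) but 47 of the 202 at or above the 99th percentile (23.3%), and 10 of the 25 highest protein-coding genes, PRTN3 among them. For the top decile, 18.5% of its genes qualified, against 12.6% over all these chromosomes. It was not the highest by that measure, since chromosome 18 had 19.7% (48 of 244 genes) and chromosome 16 had 18.6%, with chromosomes 13 and 17 at 17.4% and 17.1%. Of the 27904 probe sets with no symbol listed, 7258 (26.0%) exceeded the same threshold on the control array.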
